A study of Mus musculus with 4 samples.

Results

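The CIS and SOCS genes (Cish and Socs1 to Socs7) encode the SH2-domain feedback inhibitors of cytokine signalling, and all 8 were followed here in mouse peritoneal macrophages. They were chosen by name, as the whole family, and make up 8 of the 16403 gene IDs listed over the 4 libraries. The labels describe C57BL/6 mice that were either wild-type or lacked TIF1a, the product of Trim24, in myeloid cells, and the study's methods give an age of 6 to 8 weeks and a floxed Trim24 crossed to LysM-Cre, a Cre driven by the promoter of Lyz2. All cells were drawn out by 4% thioglycolate over 4 days, adhered for 4 h and kept in 0.5% serum, and each genotype was left nontreat or stimulated with mouse IL-4 at 20 ng/mL for 6 h. The genotypes are written WT and KO (TIF1a-KO in the labels). Each of the 4 groups (WT nontreat, WT IL-4, KO nontreat and KO IL-4) holds 1 library, and whether it came from 1 mouse or from a pool is not stated. No group has a replicate, so each test on the reads of a pair compares libraries, not conditions. The additive fit over all 4 libraries, given after the pairs, takes the genotypes as repeats of the treatment and the treatments as repeats of the genotype.

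Members of this family share a central SH2 domain, which docks on phosphorylated tyrosines, and a carboxy-terminal SOCS box, which recruits a ubiquitin ligase built on elongins and cullin 5. A cytokine such as IL-4 binds its receptor, receptor-bound JAK kinases phosphorylate STAT factors (Stat6 in the case of IL-4), and the STATs switch on target genes that include several SOCS genes, whose proteins then damp the same receptor or its kinases. CIS, SOCS1, SOCS2 and SOCS3 are the members best known as such cytokine-induced inhibitors, while SOCS4 to SOCS7 are better known from growth factor and insulin signalling.

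The libraries held 11026033 to 11250099 expected reads, and the floor of 3 reads corresponded to 0.267 to 0.272 CPM, a read count scaled to the library total. The intervals and this floor describe counting error alone. They treat reads as independent, whereas reads lacking molecular identifiers can be copies of 1 molecule, so the intervals can be too narrow. Trim24 was listed at 2.55 and 1.48 FPKM (fragments scaled to transcript length and library total) in the WT nontreat and WT IL-4 libraries, and at 0.06 and 0.14 FPKM in the KO nontreat and KO IL-4 libraries. The libraries labelled TIF1a-KO were thus the low ones. All 7 macrophage markers were detected, among them Adgre1 (F4/80) at 68.5 to 97.7 FPKM and Csf1r (the CSF-1 receptor) at 135 to 285 FPKM. Lyz2 was lower in the KO libraries (5193 and 4761 FPKM) than in the WT libraries (11289 and 10811 FPKM). Markers of B, T, NK, dendritic, mast and eosinophil lineages summed to at most 6.52 FPKM per list in any library. Those of neutrophils summed to 7.58 to 11.4 FPKM, and those of mesothelial and stromal cells to 11.3 to 23.8 FPKM. The neutrophil marker S100a8 was listed at 5.15 to 8.76 FPKM. S100a9, Ly6g and the eosinophil marker Epx were listed in no library and set to 0. For these genes, absence of reads and absence from the quantified genes cannot be told apart. In bulk RNA of this kind, fewer cells of a type and less RNA per cell cannot be told apart.

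The promoter windows of the induced members are shown first, because sites for STAT and IRF factors are the textbook route by which cytokines switch these genes on. RefSeq windows of GRCm38.p6, from 250 bases before to 50 bases after the transcript start, were at hand for 4 of the 8 genes (Cish, Socs1, Socs3 and Socs4). They were searched on both strands for TTCNNNGAA, the core to which most STATs bind, for TTC and GAA spaced by 4 bases, the wider core preferred by Stat6, and for 2 GAAA units spaced by 2 bases, the repeat bound by interferon regulatory factors (IRFs). Across 32851 mouse windows of the same length, TTCNNNGAA occurred in 8.30%, the wider core in 6.95% and the GAAA repeat in 3.44%. In the lines below, read 5′ to 3′ along the gene's strand, capitals mark the matches.
Cish, chr9:107296654-107296683, plus strand: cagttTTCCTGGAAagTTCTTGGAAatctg
Socs1, chr16:10785537-10785686, minus strand: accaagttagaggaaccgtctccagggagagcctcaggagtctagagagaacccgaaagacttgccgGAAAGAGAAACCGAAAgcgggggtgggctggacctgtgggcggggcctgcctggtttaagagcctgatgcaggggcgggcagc
Socs3, chr11:117969502-117969531, minus strand: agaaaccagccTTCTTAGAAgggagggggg

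The Cish stretch lies in the first exon of the GENCODE transcript Cish-201 (chr9:107296026-107297034) and around the RefSeq start. It held 2 copies of TTCNNNGAA, TTCCTGGAA beginning at base 1 and TTCTTGGAA at base 12 counted from that start, and 0.457% of all windows held at least 2. The Cish window spans chr9:107296409-107296708, downstream of the GENCODE 5′ end, and sequence before that end was not searched. The Socs1 stretch directly precedes the transcript start and lies in no annotated exon. It held 2 overlapping copies of the GAAA repeat, GAAAGAGAAA beginning at base -83 and GAAACCGAAA at base -77, and 0.225% of all windows held at least 2. The Socs3 stretch lies within the span of the gene but in none of its annotated exons, and it held 1 TTCNNNGAA, TTCTTAGAA beginning at base -154. That position counts from the start used for this window, which spans chr11:117969317-117969616. The 5′ end of the gene lies further upstream, at 117970336 in RefSeq and 117970047 in GENCODE. Sequence before those ends was not searched. The windows of Cish, Socs1 and Socs3 held no other match of the 3 motifs, and the Socs4 window held none. The wider core preferred by Stat6 was thus found in no member's window. These matches describe letters in short windows, and binding was not measured.

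The genes lie on 7 chromosomes and differ in length and level. In GRCm38 coordinates Cish (gene ID 12700) spans chr9:107296659-107302784, Socs1 (12703) chr16:10783808-10785536, Socs2 (216233) chr10:95383903-95417321, Socs3 (12702) chr11:117966079-117970336, Socs4 (67296) chr14:47276920-47296102, Socs5 (56468) chr17:87107278-87137647 and Socs7 (192157) chr11:97362292-97398542, and Socs6 (54607) lies on chromosome 18. Mean transcript lengths ran from 1249 bases for Socs1 to 7015 bases for Socs7. Of the 8 genes 7 were listed in every library, and Cish was unlisted, and taken as 0, in WT nontreat. By its mean FPKM over the libraries, Socs6 stood above 80.5% of all listed genes, Socs1 above 71.6%, Cish above 67.2% and Socs2, the lowest member, above 38.4%. The gene models Gm17040 and Gm17041 overlap Cish exons on the opposite strand in GENCODE. Neither was listed in any library, and whether counting used the strand is not stated, so reads from either strand at these exons cannot be told apart.

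**Figure D1:**
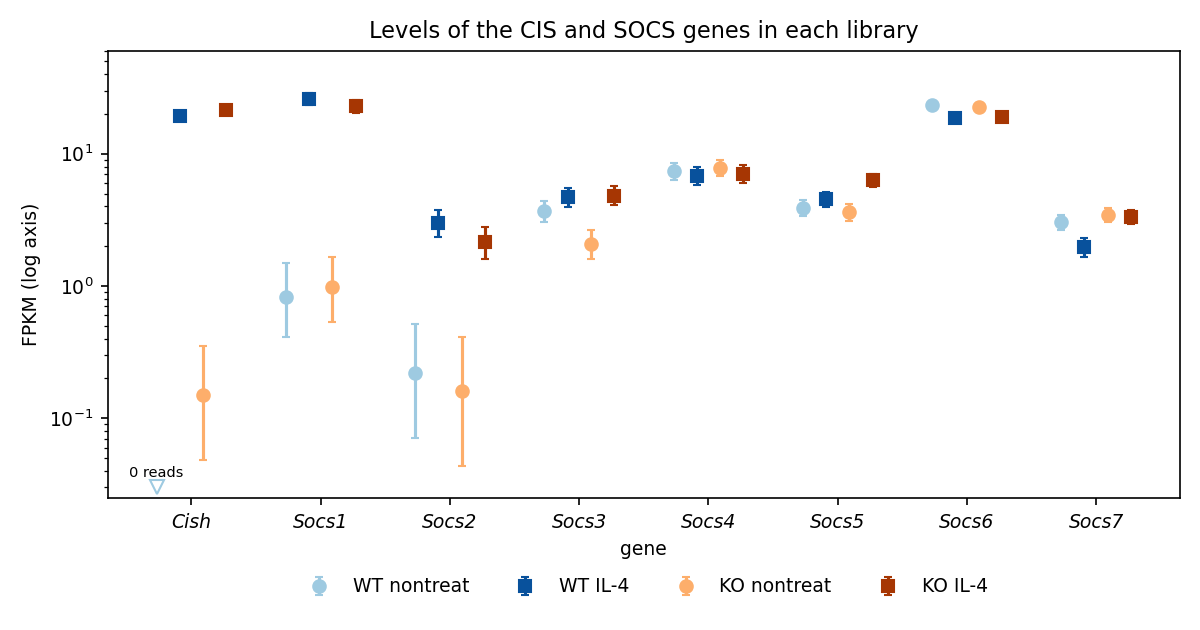
FPKM (log axis) of the 8 genes in each library, with 95% counting intervals as bars; circles are nontreat and squares IL-4 libraries, and the open triangle at the lower edge marks Cish at 0 reads in WT nontreat. Cish and Socs1 sit at 19.4 to 26.1 FPKM in the IL-4 libraries and at most 0.98 FPKM without IL-4, whereas Socs6 stays between 18.5 and 23.2 FPKM throughout.

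To ask which inhibitors macrophages carry before and after IL-4, the FPKM levels of the 8 genes were ordered within each library, neighbours being called apart only where their 95% counting intervals did not overlap. Without IL-4 the family was led by Socs6 and Socs4. In WT nontreat the order was Socs6, then Socs4, then Socs5, Socs3 and Socs7, whose intervals overlapped from one to the next, and last Socs1, Socs2 and Cish. In KO nontreat the order was Socs6, Socs4, then Socs5 and Socs7, then Socs3 and Socs1, then Socs2 and Cish, so Socs3 ranked below Socs7 there with separate intervals (2.07 FPKM, 1.59 to 2.65, against 3.42 FPKM, 3.02 to 3.85). With IL-4, Socs1 headed the list in both genotypes. In WT IL-4 it stood apart from Cish and Socs6, which overlapped each other, and these were followed by Socs4, then Socs3 and Socs5, then Socs2 and last Socs7. In KO IL-4 the intervals of Socs1, Cish and Socs6 overlapped from one to the next, as did those of Socs4, Socs5 and Socs3 after them, with Socs7 and then Socs2 at the end.

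The summed FPKM of the 8 genes was 42.2 in WT nontreat, 84.9 in WT IL-4, 40.8 in KO nontreat and 86.9 in KO IL-4. Both IL-4 libraries thus lay above both nontreat libraries. Cish and Socs1 together made up 1.97% of that sum in WT nontreat and 2.77% in KO nontreat, against 53.6% in WT IL-4 and 50.9% in KO IL-4. Socs4 to Socs7 together summed to 37.5, 31.8, 37.5 and 35.7 FPKM in the same order as the totals above, and Socs6 alone went from 55.0% and 55.4% of the family without IL-4 (WT and KO) to 21.8% and 21.9% with it. These sums are descriptions without a test.

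**Figure D2:**
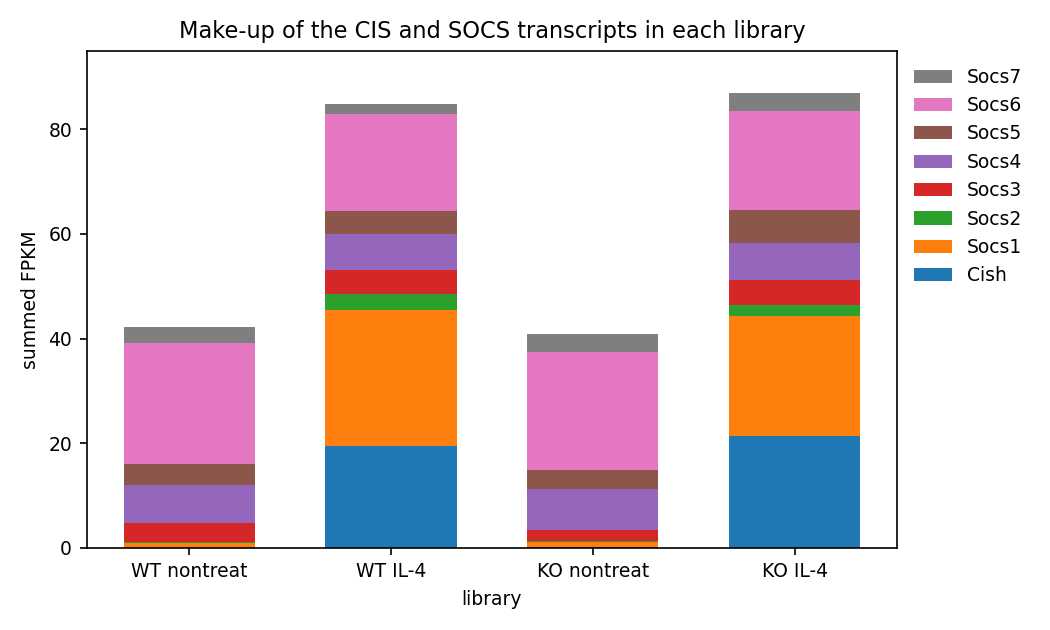
Stacked FPKM of the 8 genes in each of the 4 libraries; each colour is 1 gene. The IL-4 bars reach 84.9 and 86.9 FPKM against 42.2 and 40.8 FPKM without IL-4, and the added height is mostly Cish and Socs1.

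To ask how the family responded to IL-4, the IL-4 and nontreat libraries were compared within each genotype with Fisher's exact test (two-sided, on rounded expected reads). A gene was called at a Benjamini-Hochberg adjusted p under 0.05 over all genes with a read and a fold above 1.5. In the WT pair 3 of the 8 genes (Cish, Socs1 and Socs2) rose, 1 (Socs7) fell and 4 were not called. The background was 13.1% of all 15593 genes tested, with 4.98% higher and 8.07% lower. In the KO pair 5 of the 8 (Cish, Socs1, Socs2, Socs3 and Socs5) rose and none fell, against 9.49% of 15738 genes called, 5.34% higher and 4.15% lower. After removal of a trend of the ratios over transcript length, which is described with the genotype comparison, the WT calls over all genes split into 815 higher and 836 lower in place of 776 and 1259.

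Cish, a STAT5 target gene in many cells, encodes CIS, which occupies phosphorylated receptor tails. It had 0 expected reads in WT nontreat, 662 in WT IL-4 (19.4 FPKM), 5 in KO nontreat (0.15 FPKM) and 712 in KO IL-4 (21.3 FPKM). The IL-4 libraries were high in both genotypes and the nontreat libraries were at or near the floor. Against the floor of 3 reads per library the Cish fold in WT was 216, which depends on that floor and is no lower bound. The lower 95% limit of the exact counting interval, which has no upper limit, was 176-fold (adjusted p = 8e-195, Fisher's exact test). In KO it was 142-fold higher (95% interval 60.8 to 440, adjusted p = 3.9e-202, Fisher's exact test), a fold that rests on 5 nontreat reads.

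Socs1 encodes an inhibitor that blocks the JAK catalytic site directly and is known to restrain interferon and IL-4 signalling. It was listed at 0.83 FPKM in WT nontreat, 26.1 FPKM in WT IL-4, 0.98 FPKM in KO nontreat and 22.9 FPKM in KO IL-4, from 11, 355, 14 and 309 expected reads. Its nontreat levels lay close together and far below its IL-4 levels in both genotypes. It was 31.7-fold higher with IL-4 in WT (95% interval 17.5 to 64.0, adjusted p = 4.6e-87, Fisher's exact test) and 22.1-fold higher in KO (13.0 to 40.9, adjusted p = 4.7e-72, Fisher's exact test).

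Socs2, best known as a brake on growth hormone signalling, was the faintest of the induced members. Its level was 0.22 FPKM in WT nontreat, 2.97 FPKM in WT IL-4, 0.16 FPKM in KO nontreat and 2.14 FPKM in KO IL-4, from 5, 74, 4 and 52 expected reads. The rise was 14.5-fold in WT (5.95 to 46.0, adjusted p = 1.4e-15, Fisher's exact test) and 13.0-fold in KO (4.79 to 49.5, adjusted p = 8.5e-11, Fisher's exact test). Both folds have wide intervals because of the few nontreat reads. Where edgeR's exact test was given an assumed biological coefficient of variation of 0.4, Cish and Socs1 were still called in both genotypes and Socs2 was called in neither.

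Socs3 encodes the inhibitor that docks on gp130 and related receptors and limits IL-6 and G-CSF signals. It was listed at 3.68 FPKM in WT nontreat, 4.68 FPKM in WT IL-4, 2.07 FPKM in KO nontreat and 4.81 FPKM in KO IL-4, from 112, 145, 63 and 146 expected reads. The KO nontreat library was the low one, and the IL-4 libraries were alike. With IL-4 Socs3 rose 2.32-fold in KO (1.71 to 3.17, adjusted p = 7.3e-08, Fisher's exact test). In WT the ratio was 1.27 (0.986 to 1.64, adjusted p = 0.15, Fisher's exact test), which was not called.

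Socs5, a member tied to the EGF receptor, also rose with IL-4 in KO and was not called in WT. Its level was 3.90 FPKM in WT nontreat, 4.52 FPKM in WT IL-4, 3.62 FPKM in KO nontreat and 6.31 FPKM in KO IL-4, from 194, 229, 180 and 313 expected reads. Only the KO IL-4 library stood above the others. Socs5 rose 1.74-fold in KO (1.44 to 2.10, adjusted p = 2.1e-08, Fisher's exact test), and its WT ratio was 1.16 (0.952 to 1.41, adjusted p = 0.3, Fisher's exact test). The KO calls of Socs3 and Socs5 were both lost at an assumed coefficient of variation of 0.2, and that of Socs5 at a fold of 2.

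Socs4, the closest relative of Socs5, was called in no comparison. It was listed at 7.35, 6.80, 7.82 and 7.03 FPKM in WT nontreat, WT IL-4, KO nontreat and KO IL-4, and its IL-4 ratio was 0.925 in WT (0.743 to 1.15) and 0.898 in KO (0.724 to 1.11). Neither ratio was called, and a change within these intervals was not detectable at this depth.

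Socs6, which binds activated KIT and insulin receptor substrates, was the most abundant member by mean FPKM. Its level was 23.2 FPKM in WT nontreat, 18.5 FPKM in WT IL-4, 22.6 FPKM in KO nontreat and 19.0 FPKM in KO IL-4, from 827, 672, 805 and 677 expected reads. Both IL-4 libraries lay below both nontreat libraries. Its IL-4 ratio was 0.797 in WT (0.719 to 0.884, adjusted p = 7.2e-05, Fisher's exact test) and 0.841 in KO (0.758 to 0.933, adjusted p = 0.0054, Fisher's exact test), both under the fold threshold and so not called.

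Socs7, an adaptor-binding member linked to insulin signalling, has the longest transcripts of the family. It was listed at 3.03 FPKM in WT nontreat, 1.96 FPKM in WT IL-4, 3.42 FPKM in KO nontreat and 3.35 FPKM in KO IL-4, from 238, 157, 268 and 262 expected reads. The WT IL-4 library was the low one and the others were alike. With IL-4 Socs7 fell in WT to a ratio of 0.647 (0.526 to 0.795, adjusted p = 0.00012, Fisher's exact test), and in KO the ratio was 0.978 (0.822 to 1.16, adjusted p = 0.98, Fisher's exact test). The WT call was lost after removal of the length trend, where the log2 ratio went from -0.63 to -0.26 (adjusted p = 0.21, exact binomial test), and at an assumed coefficient of variation of 0.1 (adjusted p = 0.12, edgeR's exact test).

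**Figure D3:**
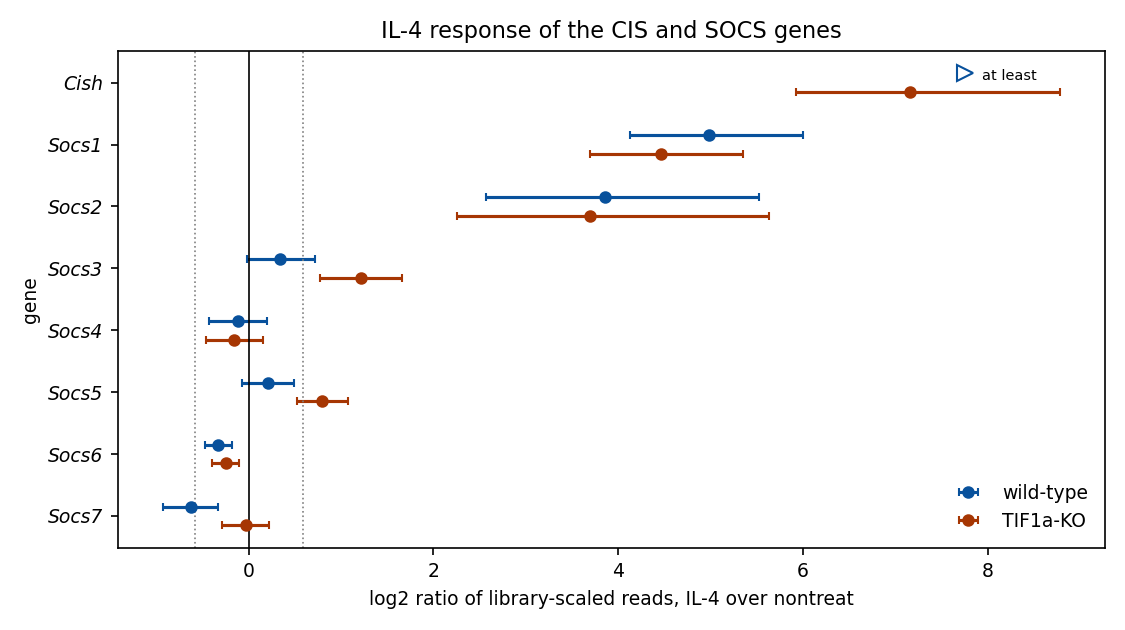
Log2 ratio of library-scaled reads, IL-4 over nontreat, of the 8 genes in wild-type (blue) and TIF1a-KO (orange) macrophages, with 95% counting intervals and dotted lines at a fold of 1.5. Cish, Socs1 and Socs2 lie far to the right in both genotypes, while Socs3, Socs5 and Socs7 have higher ratios in KO than in WT. The triangle marks Cish in WT at 216-fold against the floor of 3 reads. Its label "at least" refers to that floor, and the lower 95% limit is 176-fold.

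Whether the response itself differed between the genotypes was tested on the log2 IL-4 response of the KO minus that of the WT, against counting error (Wald test, Benjamini-Hochberg over 13456 genes, fold above 1.5). Of the 8 genes 3 were called, all with the higher response in KO, against 2.41% of all genes tested (2.06% higher and 0.349% lower). The difference was 0.86 for Socs3 (0.31 to 1.42, adjusted p = 0.026), 0.59 for Socs5 (0.20 to 0.97, adjusted p = 0.029) and 0.59 for Socs7 (0.21 to 0.97, adjusted p = 0.025). The Socs3 levels of the genotypes lay apart without IL-4 and together with it, and those of Socs5 and Socs7 lay apart with IL-4. With the length trend removed none was called: the values became 0.86 for Socs3 (adjusted p = 0.054), 0.45 for Socs5 (adjusted p = 0.21) and 0.32 for Socs7 (adjusted p = 0.48). With TMM scaling Socs3 alone was called. For the strongly induced members the difference was -0.51 for Socs1 (-1.64 to 0.63, adjusted p = 0.71), -0.19 for Socs2 (-2.06 to 1.68, adjusted p = 0.95) and -3.33 for Cish (-7.51 to 0.85, adjusted p = 0.41), the last resting on 0 and 5 nontreat reads. These intervals are wide, so a difference of response in Socs1, Socs2 or Cish was not detectable at this depth. Socs4 and Socs6 had differences of -0.04 (-0.47 to 0.39) and 0.08 (-0.13 to 0.29).

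To ask what the loss of TIF1a did to the family at each state, the KO and WT libraries were compared directly. They are the same 4 libraries as in the IL-4 comparisons, so these ratios are no further evidence on the differences above. Without IL-4 only Socs3 was called of the 8 genes, and it was lower in KO. The background was 1.60% of 15623 genes, with 0.851% higher and 0.749% lower. With IL-4 only Socs7 was called, and it was higher in KO. The background was 4.04% of 15573 genes, with 3.25% higher and 0.790% lower. With the length trend removed, the IL-4 calls over all genes split into 225 higher and 101 lower in place of 506 and 123.

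Socs3 without IL-4 stood at 2.07 FPKM in KO and 3.68 FPKM in WT, a ratio of 0.563 (0.407 to 0.773, adjusted p = 0.0065, Fisher's exact test). The log2 ratio of -0.82 was -0.81 with the length trend removed and was still called (adjusted p = 0.0087, exact binomial test). The call was lost at an assumed coefficient of variation of 0.1 (adjusted p = 0.56, edgeR's exact test). The summed mesothelial and stromal markers were also lowest in the KO nontreat library, at 11.3 FPKM against 23.7, 18.0 and 23.8 FPKM in WT nontreat, WT IL-4 and KO IL-4, and their part in the result was not tested. All 6 markers of the list were detected, and 3 of them (Krt19, Col1a1 and Col3a1) were lowest in KO nontreat, Col1a1 at 4.81 FPKM against 8.46 to 15.4 FPKM, whereas the mesothelial marker Upk3b was highest there (0.58 FPKM) and Msln and Pdgfra were lowest in other libraries. With IL-4 the Socs3 ratio was 1.03 (0.811 to 1.30, adjusted p = 1, Fisher's exact test).

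Socs7 with IL-4 stood at 3.35 FPKM in KO and 1.96 FPKM in WT, a ratio of 1.70 (1.39 to 2.09, adjusted p = 1.5e-06, Fisher's exact test). Over 10443 genes the log2 genotype ratio with IL-4 had a Spearman correlation of 0.518 with transcript length, long transcripts having the higher ratios, and the log2 IL-4 response in WT one of -0.372. Without IL-4 the genotype correlation was 0.129, and for the IL-4 response of the KO it was -0.109. The WT IL-4 library is shared by both of the stronger correlations. Once this trend was removed the log2 ratio of Socs7 went from 0.77 to 0.45 (adjusted p = 0.022, exact binomial test), under the fold threshold. The call was likewise lost at an assumed coefficient of variation of 0.1 (adjusted p = 0.14, edgeR's exact test). Without IL-4 the Socs7 ratio was 1.13 (0.943 to 1.35, adjusted p = 0.61, Fisher's exact test).

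Socs5 with IL-4 was 1.39-fold higher in KO (1.17 to 1.66, adjusted p = 0.0012, Fisher's exact test), which did not reach the fold threshold, and its log2 ratio went from 0.48 to 0.34 after trend removal (adjusted p = 0.057 by an exact binomial test). For the 3 strongly induced members no genotype ratio under IL-4 was called. The ratio of KO to WT was 1.10 for Cish (0.986 to 1.22, adjusted p = 0.27, Fisher's exact test), 0.888 for Socs1 (0.760 to 1.04, adjusted p = 0.34, Fisher's exact test) and 0.717 for Socs2 (0.493 to 1.04, adjusted p = 0.23, Fisher's exact test). The intervals of Cish and Socs1 reached no further than 1.22-fold up and 0.760 down. Without IL-4 the 0 reads of Cish in WT stood against 5 in KO (adjusted p = 0.23, Fisher's exact test), and the Socs1 ratio was 1.27 with an interval of 0.537 to 3.10. Socs4 and Socs6 had genotype ratios between 0.974 and 1.06 at both states.

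**Figure D4:**
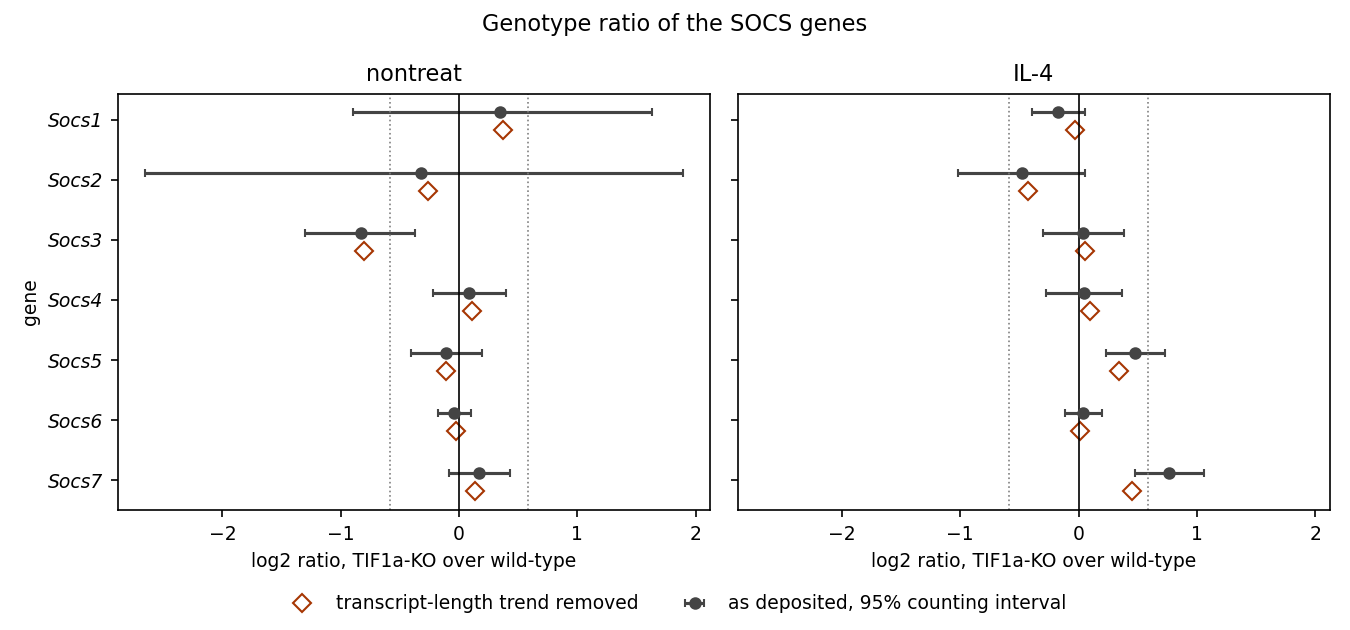
Log2 ratio of library-scaled reads, TIF1a-KO over wild-type, of Socs1 to Socs7 without IL-4 (left) and with IL-4 (right); grey points carry 95% counting intervals, open diamonds are the values with the transcript-length trend removed, and dotted lines mark a fold of 1.5. Cish is left out for its 0 reads in WT nontreat. Socs3 lies left of the lower line without IL-4 (-0.82 and -0.81), and Socs7 moves from 0.77 to 0.45, inside the line, with IL-4.

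An additive fit of treatment and genotype over all 4 libraries (edgeR's quasi-likelihood test, 11791 genes, 1 residual degree of freedom) called 6 of the 8 genes for IL-4 at an adjusted p under 0.05 with no fold threshold, against 25.3% of all genes (12.0% higher and 13.3% lower). The log2 IL-4 effect was 8.03 for Cish (adjusted p = 9.4e-11), 4.71 for Socs1 (adjusted p = 6e-10), 3.77 for Socs2 (adjusted p = 3.9e-06), 0.75 for Socs3 (adjusted p = 0.011), 0.52 for Socs5 (adjusted p = 0.015) and -0.28 for Socs6 (adjusted p = 0.048). All 6 were also called with upper-quartile scaling and with the length trend removed. The fit takes the same IL-4 effect in both genotypes, whereas in the pairs Socs3 and Socs5 were called in KO alone. limma called Cish, Socs1, Socs2 and Socs3, while DESeq2 and edgeR without its filter on low counts called Cish, Socs1 and Socs2. For genotype 0 of the 8 genes were called by edgeR, against 1.66% of all genes, and DESeq2 called 0 of the 7 for which it gave an adjusted p (none for Socs2). At an unadjusted p under 0.05 edgeR gave 1 of the 8, which was Socs7, against 14.2% of all genes. The log2 genotype effect of Socs7 was 0.45, with an adjusted p of 0.15.

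The machinery around the family was then read off from lists chosen with earlier results of these data known, by the pair test with its fold threshold. The shares over all genes to set beside these counts are 4.98% higher and 8.07% lower with IL-4 in WT, 5.34% and 4.15% in KO, 0.851% and 0.749% between the genotypes without IL-4 and 3.25% and 0.790% with IL-4. None of the 4 ligase partners of the SOCS box (Elob, Eloc, Cul5 and Rnf7) was called in any of the 4 comparisons. Of the other SOCS-box proteins 20 of 26 had reads, and with IL-4 0 rose and 2 of 20 fell in WT, Spsb4 and Rab40c, and 0 rose and 1 of 18 fell in KO, Spsb4, against the 8.07% and 4.15% lower over all genes. Spsb4, whose relatives act in ubiquitination of inducible nitric oxide synthase, was the member called throughout. It was listed at 14.1, 7.91, 23.2 and 12.8 FPKM in WT nontreat, WT IL-4, KO nontreat and KO IL-4. It fell with IL-4 by 0.83 (WT) and 0.86 (KO) on the log2 scale, and it was higher in KO by 0.72 without and 0.69 with IL-4, all 4 calls being kept with the length trend removed.

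Upstream, 1 of the 11 JAK kinases and STAT factors was called higher in each genotype and none was called lower. This was Jak2, a kinase that SOCS1 and SOCS3 inhibit, at 10.1, 26.4, 10.3 and 29.0 FPKM in the same order of libraries (log2 1.38 and 1.49). Stat6, the factor that IL-4 activates, was listed at 69.7, 56.0, 72.6 and 59.5 FPKM, the stimulated libraries being the lower ones. Its log2 ratio was -0.31 for the WT pair (adjusted p = 2.5e-14, Fisher's exact test). For the KO pair it was -0.29 (adjusted p = 1.7e-12, Fisher's exact test). Both ratios were under the fold threshold and so were not called. Of the 24 JAK-coupled receptors 3 rose and 3 fell in WT (4.98% and 8.07% over all genes), and 2 rose and 2 fell in KO (5.34% and 4.15%). Il10rb passed the fold in WT (log2 0.76) and had a log2 ratio of 0.54 in KO, under the fold with an adjusted p of 1.9e-87 by Fisher's exact test. Osmr was called lower in WT (log2 -0.89, a call lost with the length trend removed) and had a log2 ratio of -0.57 in KO. Il6st, which encodes the gp130 chain that SOCS3 binds, was listed at 18.6, 55.3, 21.8 and 87.9 FPKM in the 4 libraries and rose in both pairs (log2 1.57 and 2.01). Csf3r, the G-CSF receptor and also a SOCS3 target, rose by a log2 ratio of 0.88 and 0.92. Il10ra, the IL-10 receptor chain, fell by 1.22 and 1.20 on the log2 scale, and Il13ra1, which pairs with the IL-4 receptor chain to bind IL-13, fell by 0.71 and 0.60.

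Other brakes on the pathway were the PIAS proteins, tyrosine phosphatases, Sh2b3 and Usp18. Of these 11 genes 1 rose and 0 fell in WT (4.98% and 8.07% over all genes), and 1 rose and 1 fell in KO (5.34% and 4.15%). The one called lower was Ptpn6, the phosphatase SHP-1, with a log2 ratio of -0.70 in KO and of -0.51 in WT, the latter under the fold with an adjusted p of 9e-33 by Fisher's exact test. The phosphatase gene Ptpn2, whose product removes phosphate from JAKs and STATs, rose in both, from 11.8 to 20.1 FPKM and from 10.1 to 20.2 FPKM (log2 0.68 and 0.89). Of the 12 ligands 7 had reads and none was called in any comparison. Il6, Il10, Lif, Csf3 and Il12b had at most 5 reads in any library. At such counts a call could hardly be reached, so for these genes its absence says little. Of 11 textbook STAT-induced genes 2 rose and 2 fell in WT (4.98% and 8.07% over all genes), and 5 rose and 1 fell in KO (5.34% and 4.15%). Among the calls in KO were the kinase genes Pim1 (log2 0.94, against 0.42 in WT) and Pim3 (0.99, against 0.58) and the cyclin gene Ccnd2 (1.28, against 0.19). Pim2 was called lower in WT (log2 -0.91, against -0.37 in KO), and the differences between the genotypes in these genes are not given a test here. Myc rose in both genotypes, at 3.84, 11.6, 2.26 and 9.10 FPKM in the order of libraries above, and so did the interferon-response factor Irf1 (log2 1.33 and 0.88), and the survival gene Mcl1 fell by 0.64 and 0.69. The median log2 IL-4 response of the STAT-induced list was 0.19 in WT and 0.64 in KO, against -0.03 and 0.0005 over all genes tested. The WT median is the value of Ccnd2 (18 reads in WT nontreat and 21 in WT IL-4). The KO median is that of Ccnd1 (32 reads in KO nontreat and 50 in KO IL-4). Neither gene was called in the pair concerned, and the difference between the medians was not tested. Between the genotypes, these 7 lists held 1 call in each direction without IL-4 (Spsb4 higher and Myc lower in KO, against 0.851% and 0.749% over all genes) and 3 higher calls with IL-4 (Spsb4, Il6ra and Il6st, against 3.25%). After removal of the length trend the call of Il6st was lost and that of Pim1 was gained (log2 0.59). List genes called in 1 pair of a kind were named after their values were seen.

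**Figure D5:**
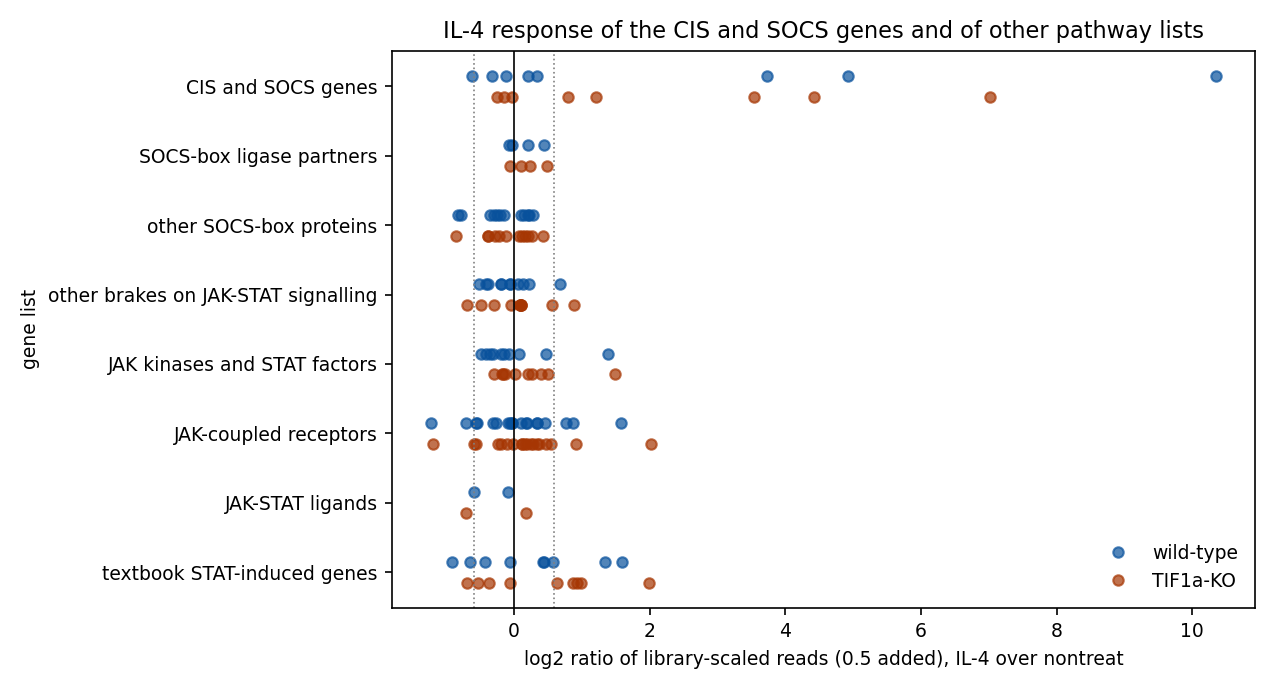
Log2 IL-4 response (IL-4 over nontreat, 0.5 added to reads) of the 8 CIS and SOCS genes and of pathway genes averaging 1 FPKM or more, each point being 1 gene in the wild-type (blue) or TIF1a-KO (orange) pair, with dotted lines at a fold of 1.5. Outside the family the points end near 2, at Il6st and Myc in KO, and the rightmost blue point is Cish, whose position depends on the 0.5 added to its 0 nontreat reads.

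The genes whose pattern over the 4 libraries was most like an induced member were picked by the smallest Euclidean distance of centred log2(FPKM + 0.1) values, among the 7440 genes averaging 5 FPKM or more. For Cish these were Arg1 (arginase 1, distance 0.61), Chil3 (Ym1, 0.96) and Tmem26 (1.20). Arg1 was listed at 1.84, 463, 5.40 and 733 FPKM in WT nontreat, WT IL-4, KO nontreat and KO IL-4. Its levels with IL-4 exceeded those of Cish many times over, while the shape was alike by this measure. The shape for Cish depends on the 0.1 added to its 0 FPKM in WT nontreat. Its log2 IL-4 response in WT was 7.61 with 0.1 added and 10.9 with 0.01 added. For Socs1 they were Plekhf1 (0.39), Serpina3h (0.45) and Rab15 (0.56), and for Socs2 Rab3il1 (0.24), Dab2 (0.30) and Ier3 (0.41). For Socs3, whose pattern has a low KO nontreat value, they were 4921524J17Rik (0.28), Pgp (0.30) and Ttc27 (0.30). With 4 libraries a small distance is easily reached, and it is given as a description.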

How the data were processed

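Total RNA of 4 macrophage libraries was sequenced on an Illumina HiSeq instrument. Per the labels and the study's methods, Bowtie mapped the reads to GRCm38 (mm10) and RSEM gave gene levels. Their versions are not given in the sources used here. The expected counts deposited by the authors are RSEM's estimated counts, of which 22.2% to 22.8% were not whole, and the deposited FPKM values scale them by transcript length and library total. Genes without reads are unlisted and were set to 0. Gene IDs were named from a RefSeq table of GRCm38.p6 (16365 of 16403 matched), exons were taken from GENCODE, and promoter windows from RefSeq; proteins were not used here. Libraries held 11026033 to 11250099 expected reads.

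Groups follow the labelled genotype and treatment. Expected counts were rounded. Pairs of libraries were tested with Fisher's exact test (two-sided, scipy 1.17.1), adjusted by Benjamini-Hochberg over all genes with a read, and calls required an adjusted p below 0.05 and a ratio of library-scaled reads above 1.5, the thresholds in the study's methods. Log2 ratios have 0.5 added to the reads, folds have none, and ratios carry exact conditional 95% intervals. Differences of responses were tested by a Wald test over genes with a read in every library or a mean of 10 reads. The additive fit used edgeR 4.0.16 (TMM, filterByExpr, quasi-likelihood test) in R 4.3.3, calls needing an adjusted p below 0.05 alone, with DESeq2 1.42.0 and limma 3.58.1 as alternatives. The other alternatives were FPKM scales with pseudocounts of 0.1, 0.01 and 1, TMM or DESeq2 size factors, a mean of 1 FPKM, a fold of 2, edgeR's exact test with biological coefficients of variation set to 0.1, 0.2 or 0.4, upper-quartile scaling, all genes with a read, and removal of the trend over transcript length (lowess, fraction 0.3, on 10443 genes of at least 200 bases and 1 FPKM, with an exact binomial test). The pair test was tried on simulated reads with counting error alone, and the additive fit on simulated reads with little spread beyond it. Neither simulation was matched to the variation between replicates, which these data cannot measure.

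Named genes were the 8 family members, Trim24, list genes called one way in both IL-4 or both genotype pairs (at most 4 per list, by mean FPKM), and the 3 nearest genes in pattern to each of Cish, Socs1, Socs2 and Socs3. Stat6, the ligase partners and the cell markers are named beyond that rule. The members, lists, motifs and alternatives were chosen with earlier results of these data known.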

Additional observations from a re-analysis of the deposited data

Results flagged for a closer look

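The IL-4 response differed between the genotypes beyond counting error for 3 of the 8 genes (Wald test of the difference of log2 responses, KO minus WT, adjusted over 13456 genes), against 2.41% of all genes tested. The difference was 0.86 for Socs3, with log2 responses of 0.34 in WT and 1.21 in KO. For Socs5 it was 0.59, from responses of 0.21 and 0.80. For Socs7 it was 0.59, from responses of -0.63 and -0.03. Each rests on 1 library per group. With TMM scaling Socs3 alone was called, and with the length trend removed none was (adjusted p = 0.054, 0.21 and 0.48 for Socs3, Socs5 and Socs7).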

How the results depend on the processing

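No paired analysis was possible because the groups share 1 replicate number only, so no replicate block can be fitted. The additive fit, which takes IL-4 within each genotype, is the nearest to one and has 1 residual degree of freedom. The alternatives gave 463 values for single members, of which 418 kept their direction and their side of the threshold, 39 lost the call, 1 gained it and 5 changed sign. The 418 include members that were called neither before nor after, so they are no measure of how stable the calls are. A fold of 2 and the assumed coefficients of variation reuse the same ratios, so direction could not change there. Members called with IL-4 in WT went from 4 to 2 at an assumed coefficient of variation of 0.4. They went to 3, by loss of Socs7, at FPKM + 1, at a fold of 2, at coefficients of 0.1 and 0.2 and with the length trend removed. In KO they went from 5 to 4 at a fold of 2, to 3 at a coefficient of 0.2 and to 2 at 0.4. For genotype without IL-4 the count went from 1 to 0 at a fold of 2 and at coefficients of 0.1, 0.2 and 0.4. For genotype with IL-4 it went from 1 to 0 at FPKM + 1, at a fold of 2, at coefficients of 0.1, 0.2 and 0.4 and with the length trend removed. For the difference of responses it went from 3 to 1 with TMM scaling, to 0 at a fold of 2 and to 0 with the trend removed. In the additive fit the IL-4 count went from 6 to 4 with limma and to 3 with all genes with a read and with DESeq2. The genotype count went from 0 to 1 with upper-quartile scaling (Socs7, log2 0.42, adjusted p = 0.047, edgeR's quasi-likelihood test). The sign changed for Socs7 with IL-4 in KO (0.0592 with the trend removed, -0.03 in the main pair test). It also changed for the additive genotype effect of Socs6 (0.0016 in the TMM fit, -0.0326 with upper-quartile scaling, -0.0024 with all genes with a read and -0.0052 with the trend removed). The additive genotype effect of Socs1 was 0.0153 with limma and negative in the other fits, from -0.19 with upper-quartile scaling to -0.01 with the trend removed. Over all genes, calls in the WT IL-4 pair went from 2035 to 951 at a fold of 2 and to 1323, 258 and 45 at coefficients of 0.1, 0.2 and 0.4, and those in KO pair from 1494 to 767, 970, 272 and 33. For genotype the counts went from 250 to 156 at FPKM + 1, 141 at a fold of 2 and 68, 15 and 7 without IL-4, and from 629 to 322, 203 and 120, 21 and 11 with IL-4, where trend removal left 326. Proportionally smaller shifts of the counts over all genes are left out. The causes of the shifts were not tested. Depth limits Cish, Socs1 and Socs2 without IL-4, which had 0 to 14 reads per library.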
